A study of Mus musculus with 10 samples.

Results

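The ADAM proteases that dendritic cell precursors transcribe, and the iRhom proteins that partner one of them, are described here across genotype and cell type. The group holds 9 genes, Adam8, Adam9, Adam10, Adam15, Adam17, Adam19, Adam23, Rhbdf1 and Rhbdf2, taken by gene name from the 52550 genes of the deposited table, and all 9 passed the filter on low values that left 14787 genes for testing. RNA came from spleens of C57BL/6 mice and was sequenced in 2 kinds of precursor of the conventional dendritic cells (cDCs). These were pre-cDC2 and pre-cDC1, which the sample titles name Ly6C and DN. The 4 groups were pre-cDC2 of CD11c-cre Adam10fl/fl mice (KO pre-cDC2, 2 libraries), pre-cDC2 of wild-type mice (WT pre-cDC2, 2 libraries), pre-cDC1 of CD11c-cre Adam10fl/fl mice (KO pre-cDC1, 3 libraries) and pre-cDC1 of wild-type mice (WT pre-cDC1, 3 libraries). In the KO mice both copies of Adam10 carry loxP sites, and Cre is made from the promoter of CD11c, an integrin gene active in dendritic cells and in part of their precursors. The sources used here do not give the exons that the loxP sites flank, the mice's age or the sort. The labels do not say that replicates are separate animals, so each p-value measures only the spread between these libraries.

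ADAM proteins are membrane-anchored metalloproteases. Many of them cut other membrane proteins just outside the cell surface, which releases the outer part in soluble form (shedding) and, for receptors such as Notch, leaves a stub that gamma-secretase cuts next. ADAM10 makes the ligand-dependent cut of Notch receptors and sheds CD23 and E-cadherin, while ADAM17 releases TNF and its receptors. ADAM17 leaves the endoplasmic reticulum only when bound to an iRhom, an inactive relative of the rhomboid proteases encoded by Rhbdf1 and Rhbdf2, and in blood cells iRhom2 is the main escort. ADAM23 lacks the catalytic site and acts in adhesion.

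Values below are the deposited log2 RPKM, that is log2 of the reads per kilobase of a gene's length after scaling to library size, so that 1 unit is a 2-fold change. Group means are given ± SD with n = 2 for each pre-cDC2 group and n = 3 for each pre-cDC1 group, and differences ± SE from a limma fit of 4 group means to all 10 libraries. The fit takes 1 spread per gene over all 4 groups, so an SE can exceed the spread within the groups compared. A gene was called when its p-value, adjusted by Benjamini and Hochberg over all genes tested, was below 0.05.

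Promoter sequence is shown for Adam10, which was higher in pre-cDC2, Adam23 and Adam8, which were lower there, and Adam17, which stayed near 1 level throughout. Adam19, also called lower in pre-cDC2, has more than 1 start, and its counts are given below without the sequence. RefSeq promoters (GRCm38.p6) were found for 6 of the 9 genes. Each line gives the 250 bases before a transcription start, 5′ to 3′ on the gene's own strand, with CpG dinucleotides in capitals.
Adam10: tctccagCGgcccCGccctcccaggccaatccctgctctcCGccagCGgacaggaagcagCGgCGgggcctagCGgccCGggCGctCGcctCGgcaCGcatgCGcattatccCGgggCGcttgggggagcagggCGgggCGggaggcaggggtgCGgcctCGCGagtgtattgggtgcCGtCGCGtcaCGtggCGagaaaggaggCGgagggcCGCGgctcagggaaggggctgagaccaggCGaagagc
Adam23: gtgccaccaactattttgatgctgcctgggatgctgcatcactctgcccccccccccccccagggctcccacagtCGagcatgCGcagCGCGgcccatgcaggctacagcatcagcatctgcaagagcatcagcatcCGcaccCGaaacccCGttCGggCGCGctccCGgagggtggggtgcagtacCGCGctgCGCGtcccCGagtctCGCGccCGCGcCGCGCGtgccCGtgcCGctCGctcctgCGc
Adam17: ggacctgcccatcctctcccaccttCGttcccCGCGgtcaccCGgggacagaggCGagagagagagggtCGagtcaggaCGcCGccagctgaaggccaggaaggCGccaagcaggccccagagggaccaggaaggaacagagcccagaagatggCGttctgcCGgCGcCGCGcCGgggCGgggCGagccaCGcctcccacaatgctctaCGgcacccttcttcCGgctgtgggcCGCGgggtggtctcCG
Adam8: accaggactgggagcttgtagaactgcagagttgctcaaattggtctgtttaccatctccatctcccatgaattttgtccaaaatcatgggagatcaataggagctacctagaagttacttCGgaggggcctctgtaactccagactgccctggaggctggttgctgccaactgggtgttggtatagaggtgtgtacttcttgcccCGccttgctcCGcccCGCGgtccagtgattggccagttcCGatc
The Adam10 stretch is chr9:70678732-70678981 on the plus strand, and it holds 29 CpG at a GC content of 74.0%. The Adam23 stretch is chr1:63445641-63445890 on the plus strand, with 27 CpG and 70.4% GC. The Adam17 stretch is chr12:21373633-21373882 on the minus strand, with 23 CpG and 70.4% GC. The Adam8 stretch is chr7:139992563-139992812 on the minus strand, with 6 CpG and 52.8% GC. Over 32841 promoters of this length the median was 6 CpG and 52.4% GC, so Adam8 lay at the middle and the others near the CpG-rich end. At most as many CpG as in Adam10 were held by 94.1% of promoters, against 92.4% for Adam23, 88.0% for Adam17 and 53.7% for Adam8. CpG content therefore did not separate the gene that was higher in pre-cDC2 (Adam10) from one that was lower there (Adam23). The stretches before the starts of Adam19, which was also lower there, held 5, 7 and 4 CpG, near the median as in Adam8. On either strand, the letters GGGCGG (a GC box, held by 32.7% of promoters) matched 3 times in Adam10, once each in Adam17 and Adam8, and not in Adam23. The letters CANNTG (an E-box, in 66.2% of promoters) matched once in each of the 4 stretches. GAGGAA (the core bound by PU.1, in 23.3%) and TGANTCA (an AP-1 site, as bound by BATF with IRF factors, in 6.8%) matched in none of these 4 stretches. In the Adam19 stretches, in the same order, CANNTG matched 4, 1 and 5 times. GAGGAA matched once in the first of them and TGANTCA once in the second, and GGGCGG did not match. All these matches are letters in a window and not measured sites.

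The libraries held 7861682 to 13176446 recovered reads. Markers of the cell types were set beside the labels. The 6 cDC1 markers had mean log2 RPKM values of 1.36 to 1.79 in KO pre-cDC2, 1.33 to 2.07 in WT pre-cDC2, 6.90 to 7.0 in KO pre-cDC1 and 6.46 to 6.48 in WT pre-cDC1, and all 6 were called lower in pre-cDC2 in both genotypes. The 6 cDC2 markers had means of 4.44 to 4.74 in KO pre-cDC2, 4.19 to 5.57 in WT pre-cDC2, 0.55 to 1.54 in KO pre-cDC1 and 3.0 to 3.18 in WT pre-cDC1. They were all higher in pre-cDC2, with 6 called in KO and 1 called in WT. One pair of libraries stood apart. WT pre-cDC2 replicates 2 and 3 correlated at r = 0.774 across genes, against 0.867 to 0.886 for the other pairs within groups. In that pair 5205 genes were more than 2-fold apart, against 2632 to 3194. Of the 9 genes, 5 were more than 2-fold apart between these 2 WT pre-cDC2 libraries. By summed RPKM, replicate 2 held 308% of the cDC2, 266% of the plasmacytoid DC and 250% of the cDC1 markers of replicate 3. It held 4.88% of the T cell and 6.35% of the NK cell markers of replicate 3. T and NK cell markers were high in KO pre-cDC2 and in WT pre-cDC2 replicate 3. Mean log2 RPKM there was 5.87 to 6.41 for T cell and 6.19 to 6.34 for NK cell markers. The cDC2 markers had 4.19 to 4.74 in those libraries. In WT pre-cDC2 replicate 2 the means were 2.03 (T), 2.27 (NK) and 5.57 (cDC2). Levels given for pre-cDC2 come from libraries that held this RNA, and its part in them was not tested. The T and NK cell markers are given again beside Adam10. Red cell markers were higher in KO for 9 of 9 tested genes in pre-cDC2 (2 called) and for 8 of 9 in pre-cDC1 (none called). Plasmacytoid DC markers were higher in pre-cDC2 for 9 of 10 genes in KO (9 called) and for 10 of 10 in WT (8 called). In bulk samples, fewer cells of a type and less RNA per cell cannot be told apart.

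Between KO and WT none of the 9 genes passed the test in either precursor, and this includes Adam10. In pre-cDC2, 0 of 9 were called by limma, against 0.0676% of all genes tested, and 1 of 9 (Rhbdf1) had an unadjusted p below 0.05, against 6.67% of all genes. In pre-cDC1, 0 of 9 were called, against 0.0271% of all genes, and again Rhbdf1 alone had an unadjusted p below 0.05, against 9.03%. These unadjusted counts depend on the groups in the limma fit. With only the compared groups, 4 of 9 were below 0.05 in pre-cDC1, as were 1816 of all 14787 genes. In pre-cDC2, 0 of 9 and 651 of all genes were. The median difference of the 9 was -0.32 in pre-cDC2 and -0.18 in pre-cDC1, and 0 over all genes in both. Over all genes 10 were called in pre-cDC2 and 4 in pre-cDC1, counts that single libraries moved: they were 1024 and 111 without WT pre-cDC2 replicate 3, 46 and 108 without WT pre-cDC2 replicate 2, and as low as 5 and 0 without another library. The KO and WT libraries did not overlap for 1 of 9 genes in pre-cDC2 (Rhbdf1, lower in KO), where 30.2% of all genes were so, and for 4 of 9 in pre-cDC1 (Rhbdf1 and Adam15 lower, Adam19 and Adam23 higher in KO), where 17.2% were. No alternative, voom on recovered reads and the omission of WT pre-cDC2 replicate 2 included, called any of the 9 between KO and WT. Other lists differed in pre-cDC1 too: KO minus WT was negative for 6 of 6 cDC2 markers (median -2.21), 5 of them at an unadjusted p below 0.05. It was also negative for 15 of 15 NK cell markers (median -2.1, 7 at an unadjusted p below 0.05), 5 of 6 B cell markers (-2.12, 4), 11 of 12 monocyte and neutrophil markers (-0.86, 4) and 7 of 7 red pulp macrophage markers (-0.78, 1), and none of these genes was called. In pre-cDC2 the difference was positive for 15 of 15 NK cell markers (median 1.99), and negative for 4 of 6 B cell markers (-0.1), 10 of 12 monocyte and neutrophil markers (-0.39) and 7 of 7 red pulp macrophage markers (-0.34). Their part in the values of the 9 genes was not tested.

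Between pre-cDC2 and pre-cDC1, 4 of 9 genes were called in KO, against 20.8% of all genes. Adam10 was higher in pre-cDC2, a direction in which 10.7% of genes were called, and Adam8, Adam19 and Adam23 were lower, in which 10.1% were. In WT the same 4 genes were called in the same directions, against 11.5% of all genes, of which 4.88% were higher and 6.59% lower. Libraries of the cell types did not overlap for 7 of 9 genes in KO and for 7 of 9 in WT, against 51.7% and 38.7% of all genes. Without WT pre-cDC2 replicate 2 the calls were 6 of 9 in KO, with Rhbdf2 and Adam15 added at adjusted p of 0.042 and 0.0167, and 4 of 9 in WT. The WT count was 2 of 9 without WT pre-cDC1 replicate 1 and 2 of 9 with only the compared groups in the fit. The members' median difference was 0.09 in KO and -0.08 in WT, against 0.09 and 0.06 over all genes. Over all genes, scaling to total reads moved these medians to 0.35 and 0.26 and the split of calls to 2589 higher and 1054 lower in KO and 1421 and 838 in WT, against 1575 and 1499 in KO and 722 and 975 in WT as deposited. Centring on library medians gave 1327 higher and 1943 lower in KO. For the interaction (KO minus WT in pre-cDC2 less that in pre-cDC1), 0 of 9 genes were called, against 0.0203% of all genes, and 0 of 9 had an unadjusted p below 0.05, against 4.82%.

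**Figure D1:**
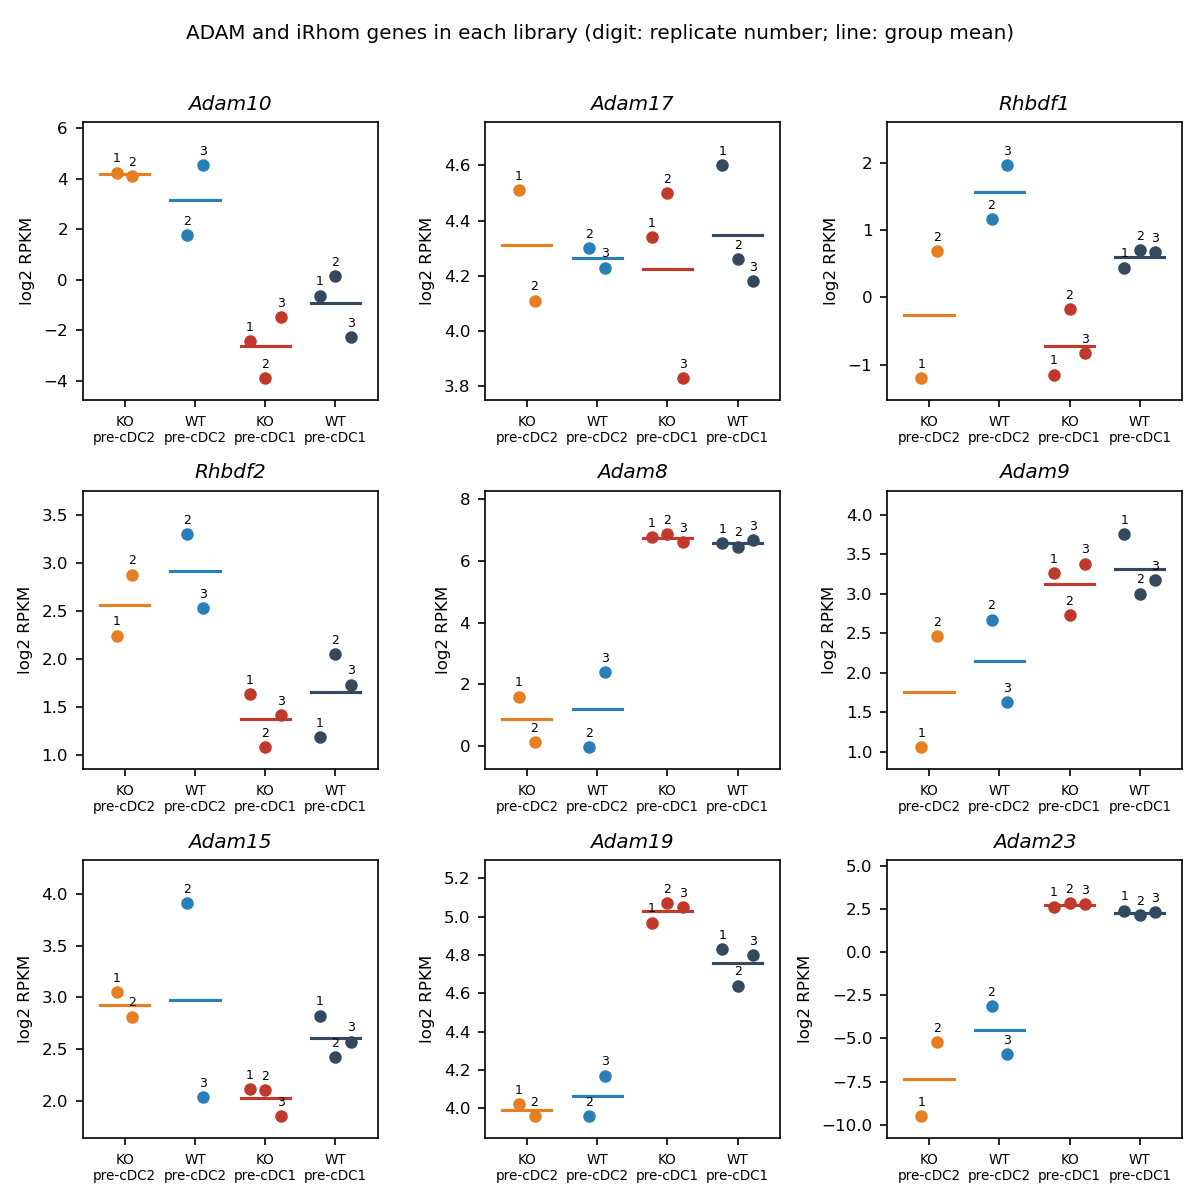
Deposited log2 RPKM of the 9 genes in each of the 10 libraries, 1 panel per gene with its own vertical range. Points are libraries with their replicate number, and lines are group means. Adam8 and Adam23 lie far lower in pre-cDC2 (0.86 and -7.36 in KO, 1.18 and -4.52 in WT) than in pre-cDC1 (6.75 and 2.75 in KO, 6.57 and 2.29 in WT), Adam10 lies higher there, and Adam17 keeps within 3.83 to 4.60 in every library.

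Adam10 (ENSMUSG00000054693.14, chr9:70678997-70780229, plus strand, GRCm38) is the gene targeted in the KO mice. Its log2 RPKM was 4.24 and 4.11 in KO pre-cDC2, against 1.76 and 4.53 in WT pre-cDC2. In pre-cDC1 it was -2.45, -3.90 and -1.5 in KO, against -0.64, 0.13 and -2.29 in WT. These values rest on 909 and 742 reads in KO pre-cDC2, 228 and 1261 in WT pre-cDC2, 9, 3 and 13 in KO pre-cDC1, and 28, 48 and 10 in WT pre-cDC1. The KO libraries of pre-cDC2 thus lie between the 2 WT libraries, and in pre-cDC1, where the gene had few reads in any library, WT replicate 3 lies inside the KO range. The group means were 4.17 ± 0.09 in KO pre-cDC2, 3.14 ± 1.96 in WT pre-cDC2, -2.61 ± 1.21 in KO pre-cDC1, against -0.93 ± 1.23 in WT pre-cDC1. KO minus WT was 1.03 ± 1.12 in pre-cDC2 (adjusted p = 0.884) and -1.68 ± 0.92 in pre-cDC1 (adjusted p = 0.644). Without WT pre-cDC2 replicate 2 the pre-cDC2 difference was -0.35 and without replicate 3 it was 2.42, so its direction rests on that pair. The interaction was 2.71 ± 1.45 (adjusted p = 0.987). The counts cover the whole gene, so reads from exons outside the loxP-flanked stretch are included and the values do not check the deletion.

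Between the cell types Adam10 showed the widest rise of the 9 genes. In pre-cDC2 it was higher than in pre-cDC1 by 6.79 ± 1.03 on the log2 scale in KO (adjusted p = 0.00178) and by 4.08 ± 1.03 in WT (adjusted p = 0.0328), with no overlap between the cell types in either genotype. Scaled to library size, the recovered reads gave a ratio of 98.5 in KO (exact 95% interval 66.5 to 153) and of 19.6 in WT (15.7 to 24.6), where the interval covers counting error only. The KO call held in all 21 alternatives run, with a difference of 3.99 when 1 RPKM was added before the log2 and of 6.15 to 7.35 when any 1 library was left out. The WT call held in 10 of 21: the difference was 2.69 (adjusted p = 0.219) without WT pre-cDC2 replicate 3 and 3.40 (adjusted p = 0.0872) without WT pre-cDC1 replicate 3, and it was 5.46 (adjusted p = 0.0128) without WT pre-cDC2 replicate 2.

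T and NK cell markers were high in the same libraries as Adam10. The 20 T cell markers had mean log2 RPKM of 5.96 and 5.87 in KO pre-cDC2, 2.03 and 6.41 in WT pre-cDC2, -3.92, -4.12 and -3.20 in KO pre-cDC1, and -1.62, -0.73 and -1.14 in WT pre-cDC1. Their summed RPKM was 1880 to 2070 in KO pre-cDC2, 140 to 2870 in WT pre-cDC2, 3.94 to 5.68 in KO pre-cDC1 and 14.9 to 26.2 in WT pre-cDC1. All 20 were higher in pre-cDC2 than in pre-cDC1, with 20 called in KO and 14 in WT. KO minus WT was positive for 20 of 20 in pre-cDC2 (median 1.58) and negative for 19 of 20 in pre-cDC1 (median -2.73), and none of these was called (8 of 20 in pre-cDC1 and 0 of 20 in pre-cDC2 had an unadjusted p below 0.05). The 15 NK cell markers summed to 2120 to 2230 RPKM in KO pre-cDC2, 162 to 2550 in WT pre-cDC2, 44.0 to 46.5 in KO pre-cDC1 and 68.5 to 74.8 in WT pre-cDC1. All 15 were higher in pre-cDC2, with 14 called in KO and 3 in WT. No T or NK marker was at 0 reads in a pre-cDC2 library. Of the T cell markers, Cd3g, Cd28 and Lef1 were at 0 in KO pre-cDC1 replicate 1, Cd3e, Zap70, Trac, Thy1, Lef1 and Themis were among those at 0 in replicate 2, Cd3g, Ubash3a and Lef1 were at 0 in replicate 3, and Bcl11b was at 0 in WT pre-cDC1 replicate 3. Of the NK cell markers, 1 to 6 were at 0 in the KO pre-cDC1 libraries, Ncr1 and Klrb1c among them in replicates 1 and 2, and Eomes was at 0 in WT pre-cDC1 replicate 1. The WT pre-cDC2 library with the lower Adam10 value, replicate 2, had Adam10 at 14.7% of the RPKM of replicate 3, T cell markers at 4.88% and NK cell markers at 6.35%. Y-linked genes moved with them: the 4 listed summed to 31 to 31.5 RPKM in KO pre-cDC2, 3.55 and 25.9 in WT pre-cDC2, 0.108 to 0.123 in KO pre-cDC1 and 0.0945 to 0.654 in WT pre-cDC1. All 3 tested were higher in pre-cDC2, with 3 called in KO and 1 in WT, and WT pre-cDC2 replicate 2 held 13.7% of the Y-linked RPKM of replicate 3. Y-linked RNA, which comes from male cells, therefore cannot be told apart from cell type across these libraries. That limit holds for every difference between the cell types given here. The part of T and NK cell RNA in the Adam10 values was not tested.

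**Figure D2:**
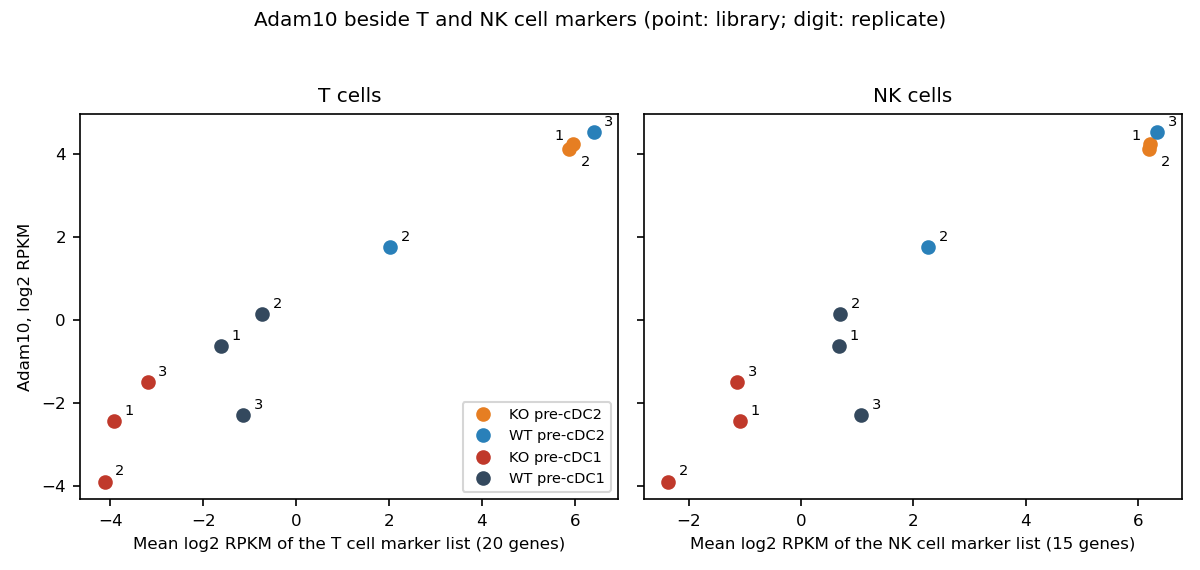
Adam10 log2 RPKM (vertical) against the mean log2 RPKM of 20 T cell markers (left) and 15 NK cell markers (right), 1 point per library with its replicate number. The 3 libraries with Adam10 above 4 have the highest marker means (5.87 to 6.41 for T cells), WT pre-cDC2 replicate 2 lies between the cell types on both axes, and KO pre-cDC1 replicate 2 is lowest on both.

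Adam17 (ENSMUSG00000052593.15, chr12:21323509-21373632, minus strand) encodes the protease closest to ADAM10 in function. Its log2 RPKM was 4.51 and 4.11 in KO pre-cDC2, 4.30 and 4.23 in WT pre-cDC2, 4.34, 4.50 and 3.83 in KO pre-cDC1, and 4.60, 4.26 and 4.18 in WT pre-cDC1, with 768 to 1938 reads per library. All 4 groups overlap. KO minus WT was 0.04 ± 0.25 in pre-cDC2 (adjusted p = 0.994) and -0.13 ± 0.21 in pre-cDC1 (adjusted p = 0.933), and pre-cDC2 minus pre-cDC1 was 0.09 ± 0.23 in KO (adjusted p = 0.836) and -0.08 ± 0.23 in WT (adjusted p = 0.877). None of these differences kept 1 sign under every alternative, and all lay within the spread between replicates. Set against Adam10 in the same library, Adam17 was higher by 0.27 and 0.00 on the log2 RPKM scale in KO pre-cDC2, by 2.54 and -0.29 in WT pre-cDC2, by 6.79, 8.40 and 5.32 in KO pre-cDC1 and by 5.25, 4.13 and 6.46 in WT pre-cDC1. Per kilobase, the RNA of the 2 sheddases was thus about equal in 3 of 4 pre-cDC2 libraries, those with the highest T and NK cell markers. Adam17 exceeded Adam10 in all 6 pre-cDC1 libraries.

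The iRhom genes differed from each other. Rhbdf1 (ENSMUSG00000020282.18, chr11:32209585-32222300, minus strand) encodes iRhom1. Its log2 RPKM was -1.20 and 0.68 in KO pre-cDC2, against 1.16 and 1.96 in WT pre-cDC2. It was -1.15, -0.18 and -0.83 in KO pre-cDC1, against 0.44, 0.70 and 0.67 in WT pre-cDC1. The reads behind these values were 23 and 76 in KO pre-cDC2, 166 and 235 in WT pre-cDC2, 25, 47 and 23 in KO pre-cDC1, and 66, 79 and 88 in WT pre-cDC1. All 5 KO libraries lay below all WT libraries of their cell type. KO minus WT was -1.82 ± 0.72 in pre-cDC2 (unadjusted p = 0.0316, adjusted p = 0.694) and -1.32 ± 0.59 in pre-cDC1 (unadjusted p = 0.0496, adjusted p = 0.55), so Rhbdf1 was not called in either. Groups without overlap and with KO lower were found for 14.6% of all genes in pre-cDC2 and for 9.27% in pre-cDC1. The pre-cDC2 difference was -0.87 without KO pre-cDC2 replicate 1 and -2.76 without KO pre-cDC2 replicate 2, and leaving out any 1 library kept the sign in both cell types. Rhbdf1 did not reach log2 RPKM above 1 in 3 libraries, so the stricter filter removed it. Between the cell types it was 0.46 ± 0.66 higher in KO pre-cDC2 (adjusted p = 0.674) and 0.95 ± 0.66 higher in WT pre-cDC2 (adjusted p = 0.414), neither of which passed.

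Rhbdf2 (ENSMUSG00000020806.15, chr11:116598165-116627019, minus strand) encodes iRhom2 and had the higher RPKM of the pair in each of the 10 libraries. Its log2 RPKM was 2.24 and 2.88 in KO pre-cDC2, 3.3 and 2.53 in WT pre-cDC2, 1.63, 1.08 and 1.41 in KO pre-cDC1, and 1.18, 2.05 and 1.73 in WT pre-cDC1. Each pre-cDC2 library lay above each pre-cDC1 library of its genotype, while KO and WT overlapped in both cell types. Pre-cDC2 minus pre-cDC1 was 1.19 ± 0.38 in KO (adjusted p = 0.0559) and 1.26 ± 0.38 in WT (adjusted p = 0.0668), just outside the threshold. In KO it passed under 4 alternatives, with adjusted p of 0.0402 and 0.042 without WT pre-cDC2 replicate 3 or 2, and in WT under both voom fits. KO minus WT was -0.35 ± 0.42 in pre-cDC2 (adjusted p = 0.894) and -0.28 ± 0.34 in pre-cDC1 (adjusted p = 0.888). Rhbdf2 exceeded Rhbdf1 by 3.44 and 2.20 on the log2 RPKM scale in KO pre-cDC2, by 2.15 and 0.57 in WT pre-cDC2, by 2.77, 1.26 and 2.23 in KO pre-cDC1, and by 0.73, 1.35 and 1.05 in WT pre-cDC1.

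Adam8 (ENSMUSG00000025473.16, chr7:139978932-139992562, minus strand) encodes a protease of myeloid cells that sheds adhesion molecules. It had the highest RPKM of the 9 genes in every pre-cDC1 library. Its log2 RPKM was 1.60 and 0.13 in KO pre-cDC2 and -0.03 and 2.40 in WT pre-cDC2, against 6.77, 6.86 and 6.60 in KO pre-cDC1 and 6.58, 6.46 and 6.68 in WT pre-cDC1. The cell types were far apart and the genotypes overlapped. Adam8 was lower in pre-cDC2 by a log2 difference of -5.88 ± 0.62 in KO (adjusted p = 0.000294) and -5.39 ± 0.62 in WT (adjusted p = 0.000764), and both calls held in all 21 alternatives. By recovered reads it was 51.3-fold lower in KO pre-cDC2 than in KO pre-cDC1 (exact 95% interval 44.4 to 59.8) and 33.1-fold lower in WT pre-cDC2 than in WT pre-cDC1 (29.7 to 37.0). Leaving out 1 pre-cDC2 library moved the size, to -6.62 without replicate 1 and -5.15 without replicate 2 in KO, and to -4.18 without replicate 2 and -6.61 without replicate 3 in WT. KO minus WT was -0.32 ± 0.68 in pre-cDC2 (adjusted p = 0.953) and 0.17 ± 0.55 in pre-cDC1 (adjusted p = 0.988). The pre-cDC1 SE here too draws on pre-cDC2. The SD was 0.13 in KO and 0.11 in WT pre-cDC1, against 1.04 in KO and 1.72 in WT pre-cDC2.

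Adam23 (ENSMUSG00000025964.15, chr1:63445891-63596276, plus strand) was read almost only in pre-cDC1. It had 0 and 4 reads in KO pre-cDC2 and 28 and 3 in WT pre-cDC2, against 1151, 1250 and 929 in KO pre-cDC1 and 854, 706 and 914 in WT pre-cDC1. In log2 RPKM this was -9.50 (the value given to 0 reads) and -5.21 in KO pre-cDC2, -3.12 and -5.93 in WT pre-cDC2, 2.64, 2.83 and 2.78 in KO pre-cDC1, and 2.41, 2.14 and 2.33 in WT pre-cDC1. By recovered reads Adam23 was 558-fold lower in KO pre-cDC2 (exact 95% interval 218 to 2050) and 70.6-fold lower in WT pre-cDC2 (49.6 to 104) than in pre-cDC1 of the same genotype. The adjusted p of the fit was 0.000671 in KO and 0.00867 in WT, with fitted differences of -10.11 ± 1.25 and -6.81 ± 1.25 whose size depends on the small count the authors' software adds before the log. They were -12.25 and -7.96 without KO pre-cDC2 replicate 2 and 1, and -8.22 and -5.41 without WT pre-cDC2 replicate 2 and 3, and with 1 RPKM added before the log2 they were -2.93 in KO and -2.47 in WT. The KO call held in all 21 alternatives and the WT call in 20 of 21. In pre-cDC1 each KO library lay above each WT library, which held for 7.88% of all genes, and the difference of 0.46 ± 1.12 was not called (adjusted p = 0.971). That SE draws on the spread of the near-empty pre-cDC2 libraries. The SD was 0.09 in KO and 0.14 in WT pre-cDC1, against 3.03 in KO and 1.99 in WT pre-cDC2. In pre-cDC2 the genotypes overlapped (adjusted p = 0.768).

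Adam19 (ENSMUSG00000011256.16, chr11:46055992-46147343, plus strand), whose protein sheds neuregulins, had a smaller step with little spread. Its log2 RPKM was 4.02 and 3.96 in KO pre-cDC2, 3.96 and 4.17 in WT pre-cDC2, 4.97, 5.07 and 5.05 in KO pre-cDC1, and 4.83, 4.64 and 4.80 in WT pre-cDC1. All 4 pre-cDC2 libraries lay below all 6 pre-cDC1 libraries. The difference between the cell types was -1.04 ± 0.14 in KO (adjusted p = 0.000895), called in all 21 alternatives, and -0.69 ± 0.14 in WT (adjusted p = 0.0122), called in 17 of 21. Without WT pre-cDC1 replicate 1 the adjusted p in WT was 0.0503, just outside the threshold. In pre-cDC1 the 3 KO libraries were above the 3 WT libraries by 0.27 ± 0.12 (unadjusted p = 0.0511, adjusted p = 0.556), which did not pass. In pre-cDC2 KO minus WT was -0.08 ± 0.15 (adjusted p = 0.949), with overlap.

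Adam9 and Adam15 are widely expressed members with a catalytic site. Adam9 (ENSMUSG00000031555.15, chr8:24949611-25016927, minus strand) had log2 RPKM of 1.06 and 2.46 in KO pre-cDC2, 2.67 and 1.63 in WT pre-cDC2, 3.26, 2.73 and 3.38 in KO pre-cDC1, and 3.75, 3.0 and 3.17 in WT pre-cDC1. The pre-cDC2 libraries were below the pre-cDC1 libraries of the same genotype, by -1.36 ± 0.47 in KO (adjusted p = 0.0697) and -1.16 ± 0.47 in WT (adjusted p = 0.156), and neither was called. In KO it passed under 3 alternatives, among them -2.07 without KO pre-cDC2 replicate 2 (adjusted p = 0.0316). Adam15 (ENSMUSG00000028041.17, chr3:89338542-89349996, minus strand) had 3.05 and 2.81 in KO pre-cDC2, 3.91 and 2.03 in WT pre-cDC2, 2.11, 2.10 and 1.85 in KO pre-cDC1, and 2.82, 2.42 and 2.57 in WT pre-cDC1. In KO each pre-cDC2 library was above each pre-cDC1 library, by 0.91 ± 0.46 (adjusted p = 0.2), and in WT the 2 pre-cDC2 libraries fell on either side of pre-cDC1, with a difference of 0.37 ± 0.46 (adjusted p = 0.672). In pre-cDC1 Adam15 was lower in each KO library than in each WT library, by -0.58 ± 0.41 (adjusted p = 0.759), and was not called. KO minus WT in pre-cDC2 was -0.04 ± 0.50 for Adam15 and -0.39 ± 0.51 for Adam9, both with overlap.

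**Figure D3:**
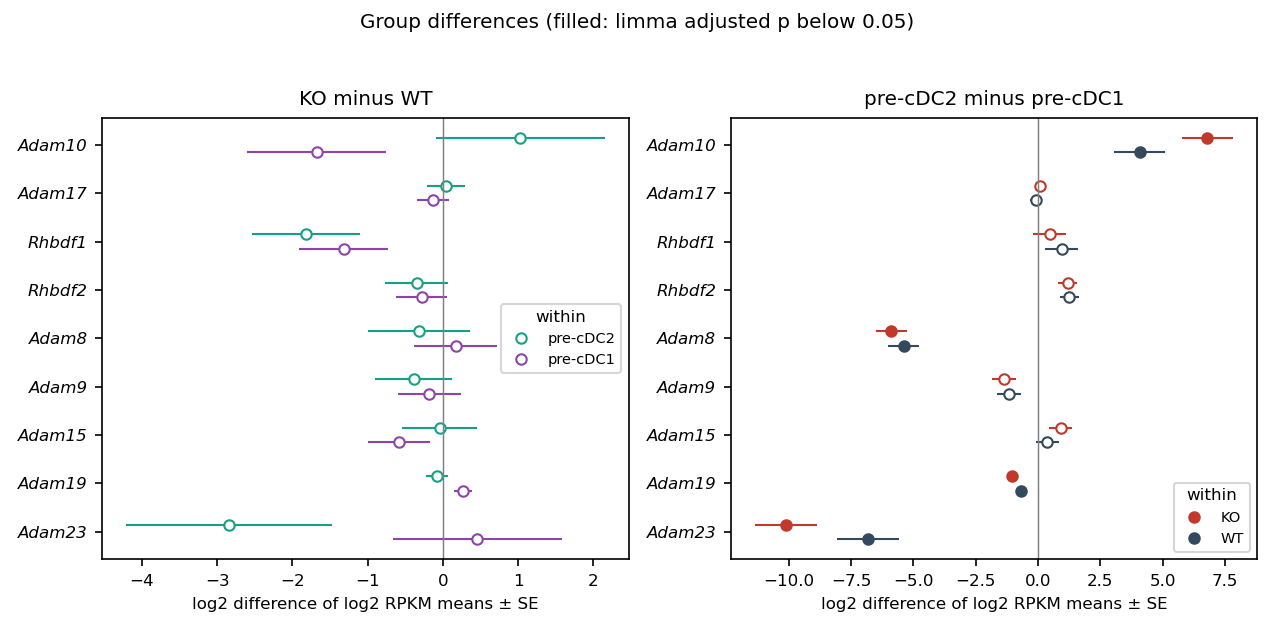
Differences of group means in log2 RPKM for the 9 genes, KO minus WT on the left (pre-cDC2 above pre-cDC1 for each gene) and pre-cDC2 minus pre-cDC1 on the right (KO above WT for each gene). Bars are SE from the limma fit and filled points have an adjusted p below 0.05. No point is filled on the left, and Adam10, Adam8, Adam19 and Adam23 are filled in both genotypes on the right.

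As RPKM is per length, the levels of the genes can be ordered within a group. In KO pre-cDC2 the order of mean log2 RPKM was Adam17, Adam10, Adam19, Adam15, Rhbdf2, Adam9, Adam8, Rhbdf1 and Adam23. The neighbours whose libraries did not overlap there were Adam10 with Adam19, Adam19 with Adam15, and Rhbdf1 with Adam23. In WT pre-cDC2 the order was Adam17, Adam19, Adam10, Adam15, Rhbdf2, Adam9, Rhbdf1, Adam8 and Adam23, and only the first and the last pair of neighbours did not overlap. In KO pre-cDC1 it was Adam8, Adam19, Adam17, Adam9, Adam23, Adam15, Rhbdf2, Rhbdf1 and Adam10, with overlap between Adam9 and Adam23 only. WT pre-cDC1 had the same order with Adam15 before Adam23, and no neighbours overlapped.

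The summed RPKM of the 9 genes was 76.5 and 72.8 in KO pre-cDC2, 73.3 and 82.1 in WT pre-cDC2, 185, 194 and 169 in KO pre-cDC1, and 179, 157 and 174 in WT pre-cDC1. Adam8 alone made 3.97% and 1.5% of the sum in KO pre-cDC2 and 1.33% and 6.43% in WT pre-cDC2, against 57.53% to 60.09% in KO pre-cDC1 and 53.55% to 59.11% in WT pre-cDC1. Adam10 made 24.64% and 23.77% in KO pre-cDC2, against 4.61% and 28.11% in WT pre-cDC2, and at most 0.21% in KO pre-cDC1 libraries, against 0.70% in WT pre-cDC1. Adam17 and Adam19 together made most of the rest in pre-cDC2, Adam17 with 23.74% to 29.76% in KO and 22.93% to 26.90% in WT, and Adam19 with 21.28% to 21.44% in KO and 21.30% to 22.01% in WT. The sum depends on the shared scale of the libraries, since RPKM is relative to all reads.

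**Figure D4:**
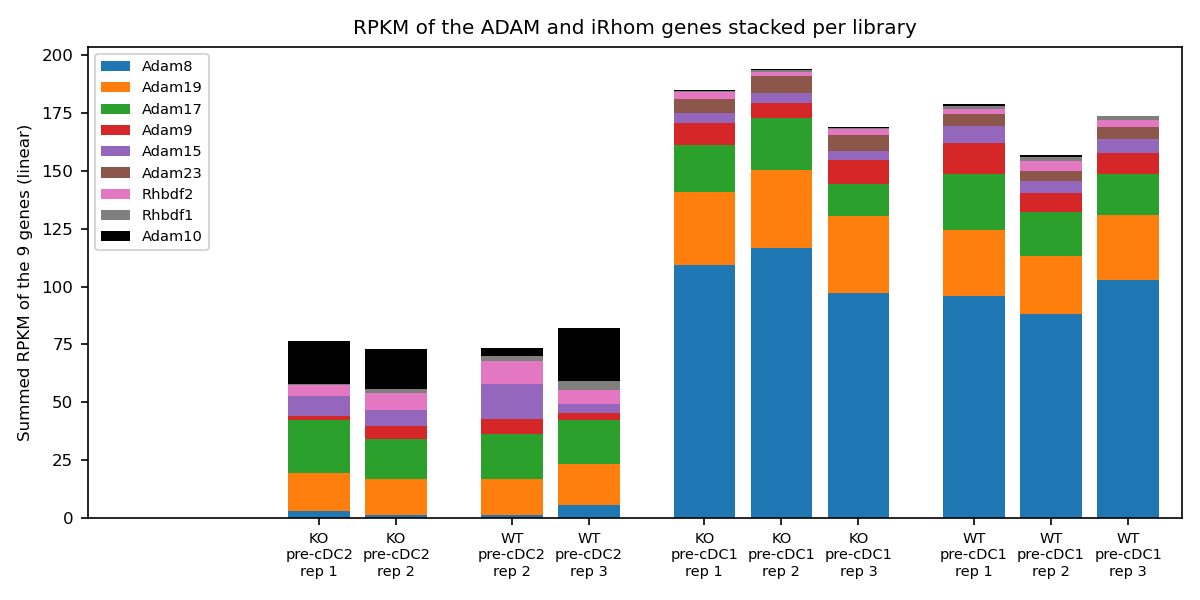
RPKM of the 9 genes stacked per library on a linear axis that starts at 0, with KO left of WT and pre-cDC2 left of pre-cDC1. The pre-cDC2 stacks reach 72.8 to 82.1 and the pre-cDC1 stacks 157 to 194, and most of the gap is Adam8. WT pre-cDC2 replicate 2 has a thin Adam10 segment and a thick Adam15 segment.

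Of 24 other ADAM genes in the table, 3 passed the filter (Adam4, Adam11 and Adam22). Adam22, which like Adam23 encodes a member without a catalytic site, was lower in pre-cDC2 by -5.46 ± 0.72 in KO (adjusted p = 0.000875) and by -5.38 ± 0.72 in WT (adjusted p = 0.00182). Adam11, also without a catalytic site, was higher by 3.35 ± 0.54 in KO (adjusted p = 0.00255) and 2.31 ± 0.54 in WT (adjusted p = 0.0243). None of the 3 was called between KO and WT, and 0 in pre-cDC2 and 2 in pre-cDC1 had an unadjusted p below 0.05. Those were Adam11, at -1.28 ± 0.48 (adjusted p = 0.458), and Adam4, at 3.97 ± 1.68 (adjusted p = 0.518).

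ADAM proteins are made with a prodomain, which in many but not all of them furin and related proprotein convertases remove. TIMP proteins and RECK inhibit some of the mature enzymes. Of 15 listed genes of maturation and inhibition, 9 were tested and none was called between KO and WT (median differences -0.27 in pre-cDC2 and -0.26 in pre-cDC1, with 0 and 1 gene at an unadjusted p below 0.05). Furin was not called, at -0.61 ± 0.28 in pre-cDC2 (adjusted p = 0.754) and -0.47 ± 0.23 in pre-cDC1 (adjusted p = 0.585). Between the cell types 3 of the 9 tested genes were called higher in KO and 2 in WT, against 10.7% and 4.88% of all genes. None was called lower. Frmd8, whose product stabilises the iRhom and ADAM17 complex at the surface, rose in pre-cDC2 by 1.53 ± 0.16 in KO (adjusted p = 0.00035) and 1.12 ± 0.16 in WT (adjusted p = 0.00305). In pre-cDC1 its KO minus WT difference was -0.42 ± 0.15 (adjusted p = 0.417). Pcsk7, a proprotein convertase, rose by 0.74 ± 0.17 in KO (adjusted p = 0.0155) and 0.75 ± 0.17 in WT (adjusted p = 0.0231), and its KO minus WT difference in pre-cDC2 was -0.27 ± 0.19 (adjusted p = 0.836). Reck rose by 7.35 ± 1.95 in KO (adjusted p = 0.0262), and was at 3.91 ± 1.95 in WT (adjusted p = 0.25). Reck had log2 RPKM of 3.73 and 3.86 in KO pre-cDC2, against 0.61 and 3.99 in WT pre-cDC2, where the low library is replicate 2, in which T and NK cell markers were low too. The part of those cells in the Reck values was not tested.

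All 7 gamma-secretase genes were tested and none was called between KO and WT, with a median difference of 0 in pre-cDC2 (2 genes at an unadjusted p below 0.05) and -0.02 in pre-cDC1 (0 genes). Between the cell types Aph1c, a subunit of the complex, fell by 4.32 on the log2 scale in KO pre-cDC2 (SE 0.50, adjusted p = 0.000466) and by 2.85 in WT pre-cDC2 (SE 0.50, adjusted p = 0.00669). Aph1c has a near-identical copy, Aph1b, so the split of reads between them is uncertain. Psenen, another subunit, rose in KO pre-cDC2 by 0.88 ± 0.23 (adjusted p = 0.0238) and was not called in WT (0.26 ± 0.23, adjusted p = 0.533). KO minus WT in pre-cDC2 was -1.48 ± 0.54 for Aph1c (adjusted p = 0.655) and 0.62 ± 0.25 for Psenen (adjusted p = 0.712).

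Of 20 listed ADAM10 substrates 14 were tested. None was called between KO and WT, and 10 of 14 had a lower mean in KO in each precursor (median -0.23 in pre-cDC2 and -0.42 in pre-cDC1, with 0 and 3 genes at an unadjusted p below 0.05). The smallest adjusted p among them were those of Fcer2a (CD23) in pre-cDC1, at -6.76 ± 1.03 (adjusted p = 0.0643), and of Cdh1 (E-cadherin) in pre-cDC1, at -3.82 ± 1.32 (adjusted p = 0.4). Fcer2a is also 1 of the 12 B cell markers, of which 6 were tested and 5 had a lower mean in KO pre-cDC1, Igkc at -5.43 ± 1.10 (adjusted p = 0.145) and Cd79a at -3.25 ± 1.30 (adjusted p = 0.489) among them. The 12 summed to 1420 to 1530 RPKM in KO pre-cDC2, 1110 to 1730 in WT pre-cDC2, 355 to 404 in KO pre-cDC1 and 597 to 702 in WT pre-cDC1, and in each library 1 to 7 of them were at 0 reads. The part of B cell RNA in the Fcer2a values was not tested. In pre-cDC2 they were those of Flt3l, the ligand of FLT3, at 0.81 ± 0.49 (adjusted p = 0.823), and of App, at -0.71 ± 0.44 (adjusted p = 0.826).

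Between pre-cDC2 and pre-cDC1, 7 ADAM10 substrates were called higher and 4 lower in KO, and 3 higher and 2 lower in WT, where 20.8% of all genes were called in KO and 11.5% in WT. All 5 genes called in WT were called in KO in the same direction. Havcr2, which encodes TIM-3, a surface protein of cDC1, was lower by -6.85 ± 0.18 in KO (adjusted p = 7.86e-08) and -6.33 ± 0.18 in WT (adjusted p = 1.73e-07). Cxcl16, a membrane-bound chemokine, was lower by -4.96 ± 0.62 in KO (adjusted p = 0.000717) and -4.42 ± 0.62 in WT (adjusted p = 0.00244). Lag3 was higher by 3.83 ± 0.49 in KO (adjusted p = 0.000771) and 3.39 ± 0.49 in WT (adjusted p = 0.00273). Fasl was higher by 10.61 ± 1.78 in KO (adjusted p = 0.0031) and 7.04 ± 1.78 in WT (adjusted p = 0.0336). Fasl and Lag3 encode proteins of activated T and NK cells, whose markers were higher in the same libraries. Flt3l was higher by 2.46 ± 0.45 in KO (adjusted p = 0.0047) and 1.77 ± 0.45 in WT (adjusted p = 0.034). In KO, Cdh1 was called at 9.24 ± 1.48 (adjusted p = 0.00243) and Fcer2a at 6.67 ± 1.16 (adjusted p = 0.00362), and in WT their differences were 4.42 ± 1.48 (adjusted p = 0.0912) and 0.07 ± 1.16 (adjusted p = 0.985). The B cell markers Igkc, at 7.51 ± 1.23 (adjusted p = 0.00275), and Ighm, at 1.17 ± 0.24 (adjusted p = 0.00907), were called higher in KO pre-cDC2 as well, and 5 of the 6 tested had higher means there. The interaction of Fcer2a was 6.60 ± 1.64 and was not called (adjusted p = 0.757). The Notch receptors, the best known substrates, gave 1.72 ± 0.52 for Notch1 (adjusted p = 0.0436) and -1.15 ± 0.28 for Notch2 (adjusted p = 0.0184) in KO, and 1.65 ± 0.52 for Notch1 (adjusted p = 0.0741) and -0.88 ± 0.28 for Notch2 (adjusted p = 0.078) in WT.

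Of 20 listed ADAM17 substrates 13 were tested, and none was called between KO and WT. Their means were lower in KO for 9 of 13 in pre-cDC2 (median -0.26, 3 genes at an unadjusted p below 0.05) and for 11 of 13 in pre-cDC1 (median -0.39, 5 genes). The 14 monocyte and neutrophil markers had lower sums in KO pre-cDC1 too, at 1130 to 1510 RPKM, against 1890 to 2110 in WT pre-cDC1. In pre-cDC2 their sums overlapped, at 281 and 347 in KO against 592 and 268 in WT. The part of these markers was not tested. Tnf was at -0.74 ± 0.24 in pre-cDC2 (adjusted p = 0.58) and -0.95 ± 0.20 in pre-cDC1 (adjusted p = 0.15), with each KO library below each WT library in both. Il1r2, the decoy receptor of IL-1, was at -2.01 ± 0.43 in pre-cDC1 (adjusted p = 0.151), and Icam1, an adhesion molecule, at -0.39 ± 0.13 in pre-cDC2 (adjusted p = 0.58). Between the cell types 5 were called higher and 3 lower in KO pre-cDC2, and 2 higher and 2 lower in WT pre-cDC2. Over all genes 20.8% were called in KO and 11.5% in WT. Tnfrsf1b, a TNF receptor, rose by 1.53 ± 0.23 in KO (adjusted p = 0.00174) and 0.98 ± 0.23 in WT (adjusted p = 0.0241). Kit, the receptor of stem cell factor, fell by 2.92 in KO (SE 0.35, adjusted p = 0.000539) and by 2.66 in WT (SE 0.35, adjusted p = 0.00162). Il1r2 fell by 1.84 in WT (SE 0.48, adjusted p = 0.0367) and was at 0.07 ± 0.48 in KO (adjusted p = 0.943). In KO, Csf1r, the receptor of M-CSF, rose by 2.72 ± 0.52 (adjusted p = 0.00615), Ptprc (CD45) by 0.96 ± 0.19 (adjusted p = 0.00795), and Alcam, an adhesion molecule, fell by 1.25 (SE 0.32, adjusted p = 0.0234), none of which was called in WT. A call in 1 genotype does not show a difference between the genotypes: in the limma interaction 0 of 14 ADAM10 substrates and 0 of 13 ADAM17 substrates were called, with 2 of each at an unadjusted p below 0.05.

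Among 8664 tested genes with a mean log2 RPKM of at least 1, those most like each member by Pearson's r over the 10 libraries are given as a description, since the points fall into 2 cell types and share their libraries. The genes most like Adam10 were Icam2 (r = 0.986), Cd3d (0.983), Rnaset2b (0.982), Tbx21 (0.98) and Ptprcap (0.978). Cd3d encodes a chain of the T cell receptor complex, and Tbx21 the transcription factor T-bet of NK and T cells. Those most like Adam8 were Gcsam (0.993), Qpct (0.992) and Kcnip3 (0.99). For Adam23 they were Cxcl9 (0.995), Calr (0.994) and Sowahc (0.994), and for Adam19 Zcchc4 (0.985), Tmpo (0.983) and Actr3 (0.982). Rhbdf2 was most like Rab11fip5 (0.978), Tspan14 (0.96) and Sgcb (0.957). Tspan14 encodes a tetraspanin known to escort ADAM10. Adam9 was most like Mtrf1 (0.969), Hnrnpa1 (0.961) and Prkra (0.951), and Adam15 most like Gpatch1 (0.964), Cd244 (0.96) and Ptpro (0.956). Matches were weaker for Adam17, with Zfp3 (0.936), Dcaf17 (0.9) and Atp6v1c1 (0.896), and for Rhbdf1, with Rhob (0.929), Nfyc (0.924) and Atf4 (0.909).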

How the data were processed

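RNA was amplified by SMARTSeq v2 and sequenced in paired ends, per the labels' protocols. The submitters' processing notes name STAR 2.3, featureCounts 1.5.0, edgeR and R 3.3.3, with GRCm38 as the build. Annotation release and strand setting: not given in the sources used here. The deposited values are log2 RPKM, to which the authors' software added a small offset (0.245 reads on average).

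Members and gene lists were chosen with earlier results of these data known. limma 3.58.1 (R 4.3.3, eBayes with trend, two-sided) fitted 4 group means to the 14787 genes above log2 RPKM 0 in 2 or more libraries, with 6 residual and 3.31 prior degrees of freedom, in 5 comparisons. No pseudocount was added. The procedure was tested on simulated data. Named genes are the members, list genes past the threshold (up to 6 per comparison, by p) with the 2 of smallest p, both Notch receptors and 3 B cell markers, chosen after their values were seen, and the best matches by r. Some list genes are not reported here.

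Whole reads, recovered with GENCODE M21 lengths, served for read numbers, ratios and voom: all 490350 values of 49035 genes were whole within 0.01 reads. For 3154 further genes, Adam17 among them, the length was solved too. Without molecular identifiers, intervals cover counting error only. Alternatives were other filters, 1 RPKM added, other scalings, no trend, fewer groups in the fit, replicate blocks, voom and leaving out each library.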

Additional observations from a re-analysis of the deposited data

How the results depend on the processing

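Of 904 values of the 9 genes under alternatives, 833 kept direction and side of the threshold, 16 lost a call, 13 gained one and 42, none of them called, changed sign. Where a value below changed, the cause was not tested. Depth limits Adam10 in pre-cDC1 (3 to 48 reads a library) and Adam23 in pre-cDC2 (0 to 28). Without a pre-cDC2 library its group has 1 left, assumed to vary like the others. Rhbdf1 has no value under the stricter filter (log2 RPKM above 1 in 3 libraries), and the interaction none with only the compared groups. Voom scaled to total reads was chosen after seeing the data.

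The count of all genes past the threshold was 10 for KO minus WT in pre-cDC2. It was 25 with no filter, 5 with 1 RPKM added, 42 without trend, 2 with the replicate block, 4 with either voom fit, 0 with only the compared groups (651 at an unadjusted p below 0.05), and 5 to 1024 leaving out 1 library, the highest without WT pre-cDC2 replicate 3 and 46 without replicate 2. For KO minus WT in pre-cDC1 it was 4. It was 11 with no filter, 18 with the stricter filter, 2 with 1 RPKM added, 9 after quantile normalization, 18 without trend, 0 with the replicate block (1242 unadjusted), 0 with either voom fit (1183 and 1194 unadjusted), 53 with only the compared groups, and 0 to 111 leaving out 1 library. For pre-cDC2 minus pre-cDC1 in KO it was 3074, with 1094 under the replicate block within genotype and 1396 to 3845 leaving out 1 library. In WT it was 1697, with 217 under that block, 460 with only the compared groups and 991 to 2722 leaving out 1 library. Of the 9 genes, 4 were called in WT, with 1 under that block, 2 with only the compared groups and 2 to 4 leaving out 1 library. For the interaction the count was 3. It was 1 with the stricter filter, 6 after quantile normalization, 36 without trend, 0 with the replicate block, 1 with either voom fit and 0 to 456 leaving out 1 library.

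The labels do not say whether libraries with the same replicate number share an animal. For same-numbered libraries of 1 genotype, deviations from the group means correlated at -0.02 to 0.028 across genes. With 2 libraries in each pre-cDC2 group the deviations there mirror each other, so these values could hardly show a shared animal. Same-numbered libraries of the 2 cell types differed in summed Y-linked RPKM. In KO replicates 1 and 2 it was 31.5 and 31 in pre-cDC2, against 0.118 and 0.108 in pre-cDC1. In WT replicates 2 and 3 it was 3.55 and 25.9 in pre-cDC2, against 0.488 and 0.654 in pre-cDC1. The replicate blocks below thus group libraries that differ in Y-linked RNA, and they are not read here as blocks of animals. With the replicate block the Adam10 difference between the cell types in WT had an adjusted p of 0.0701, and 0.194 within genotype, against 0.0328. Within genotype the WT adjusted p was 0.177 for Adam19 and 0.104 for Adam23.

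Adam17 changed sign for KO minus WT in pre-cDC2 (-0.03 after median centring, -0.19 with the replicate block), for pre-cDC2 minus pre-cDC1 in KO (-0.11 after median centring, -0.03 with the replicate block, -0.11 with the block within genotype) and in WT (0.04 and 0.05 with these blocks, 0.13 with voom scaled to total reads), and in the interaction (-0.07 with the replicate block). So did Adam19 for KO minus WT in pre-cDC2 (0.01 with voom scaled to total reads) and Rhbdf1 between the cell types in KO (-0.10 after quantile normalization).

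Leaving out 1 library turned the sign of these uncalled differences, whose lowest and highest values were as follows. For KO minus WT in pre-cDC2 they were -0.35 to 2.42 for Adam10, -0.98 to 0.90 for Adam15, -0.16 to 0.24 for Adam17, -0.18 to 0.03 for Adam19, -1.53 to 0.90 for Adam8, -1.09 to 0.32 for Adam9 and -0.74 to 0.04 for Rhbdf2. For KO minus WT in pre-cDC1 they were -0.26 to 0.07 for Adam17 and -0.34 to 0.04 for Adam9. For pre-cDC2 minus pre-cDC1 in KO they were -0.11 to 0.29 for Adam17 and -0.48 to 1.40 for Rhbdf1. For pre-cDC2 minus pre-cDC1 in WT they were -0.57 to 1.31 for Adam15 and -0.17 to 0.05 for Adam17. For the interaction they were -0.40 to 1.47 for Adam15, -0.03 to 0.37 for Adam17, -1.71 to 0.72 for Adam8, -0.90 to 0.50 for Adam9, -1.43 to 0.45 for Rhbdf1 and -0.46 to 0.31 for Rhbdf2.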
